A study of Mus musculus with 2 samples.

Results

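Malat1, Neat1, Miat, Tug1 and Pantr1 are 5 long noncoding RNA genes known from the cell nucleus or from neural tissue, and they were chosen by name. Their rows were found by Ensembl identifier in the deposited gene and transcript tables of newborn mouse forebrain, giving 5 of 43346 genes. All 5 were found in both libraries. Of the 5694 long noncoding RNA genes in these tables, 2777 were annotated as lincRNA, a class that here holds all of these genes except Tug1, which is annotated as antisense.

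Long noncoding RNAs are transcribed and usually spliced like messenger RNAs but are not translated into a known protein, and several stay in the nucleus. Malat1 gathers in nuclear speckles, bodies rich in splicing factors, while the long form of Neat1 is the scaffold of paraspeckles, which hold RNA-binding proteins. Miat, also called Gomafu, is found in nuclei of the nervous system. Tug1 is expressed in retina and brain, and Pantr1 is transcribed away from Pou3f3, a POU-domain transcription factor gene of the developing cortex.

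Total RNA longer than 200 nt, depleted of ribosomal RNA, was sequenced as stranded paired-end libraries from forebrain of healthy mice of strain B6NTac;B6NCrl/Lap at age 0 day, males and females pooled. The 2 libraries form 1 group, so the design contains no treatment, genotype or stage to compare. Replicate 1 came from 15 mice and replicate 2 from a pool of unstated size. They were separate tissue isolates that carry the same donor identifier in the labels, so SDs over n = 2 describe the spread between these libraries, which may be partly technical.

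The libraries held 62516003 expected counts in replicate 1 and 65912060 in replicate 2. Protein-coding genes took 69.3% of counts in replicate 1 and 77.5% in replicate 2, but 13.5% and 22.0% of TPM. Genes of the class misc_RNA held 73.0% of TPM in replicate 1 and 64.7% in replicate 2. TPM divides counts by effective length, and coding TPM below is TPM rescaled so that protein-coding genes sum to 1000000, which multiplied values by 7.38 in replicate 1 and 4.54 in replicate 2. All 8 telencephalon markers reached 1 coding TPM in both libraries, none of 8 midbrain, hindbrain and Hox markers did, and 5 of those 8 were at 0 in both. The 5 meningeal fibroblast markers summed to 279 coding TPM in replicate 1 and 761 in replicate 2, and 3 of the 5 were at least 2-fold higher in replicate 2. Summed levels of 9 diencephalic markers were 43.0 coding TPM in replicate 1 and 77.7 in replicate 2, those of 4 skeletal muscle markers 25.3 and 13.0, and those of 5 endothelial markers 205 and 261.

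Malat1 and Neat1 lie near each other on the minus strand of chromosome 19 and end in related sequence elements. Malat1 (ENSMUSG00000092341.2) spans chr19:5795690-5802672 and Neat1 (ENSMUSG00000092274.2) spans chr19:5824708-5845478 on mm10 (GRCm38). In both RNAs, 2 U-rich stretches are known to fold with an A-rich stretch into a triple helix that protects the 3′ end, and RNase P makes that end by cutting just before a tRNA-like sequence. The elements, read from the GENCODE M21 transcripts Malat1-201 (chr19:5795982-5796065) and Neat1-201 (chr19:5824708-5824797), are shown 5′ to 3′ in DNA letters, with every run of at least 11 bases shared by the last 500 bases of both transcripts in capitals.

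Malat1 3′ element: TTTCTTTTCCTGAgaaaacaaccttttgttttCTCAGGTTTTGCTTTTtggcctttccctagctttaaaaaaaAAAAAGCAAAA
Neat1 3′ element: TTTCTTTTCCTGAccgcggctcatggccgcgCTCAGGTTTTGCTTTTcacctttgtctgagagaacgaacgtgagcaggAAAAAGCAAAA

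There were 3 such shared runs, and they contain the U-rich stretches (TTTCTTTTCCTGA and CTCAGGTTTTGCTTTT) and the A-rich stretch (AAAAAGCAAAA) in the same order in both RNAs. They were taken from these sequences, so their presence there is no result. Over all 141767 annotated transcripts, the first occurred in 0.0247% on the sense strand and 0.0339% on the reverse strand, and the A-rich run in 0.436% and 0.427%. The middle run occurred in 2 transcripts on the sense strand, or 0.00141%, and in 0 on the reverse. All 3 in order, without overlap and at most 80 bases apart, occurred in those 2 transcripts, Malat1-201 and Neat1-201, and in 0 on the reverse strand.

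What follows each element is annotated differently. Malat1-201 continues for 292 bases past its element, whereas Neat1-201 stops at its last base and an annotated small RNA of 56 nt, Gm27702, begins at the next one. The first 64 bases after the Malat1 element (chr19:5795918-5795981) and Gm27702 (chr19:5824652-5824707), both on the minus strand, are shown because they are the tRNA-like side of the cut, with their longest shared run, of 9 bases, in capitals.

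Malat1 following bases: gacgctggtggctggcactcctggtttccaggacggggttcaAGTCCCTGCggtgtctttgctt
Gm27702: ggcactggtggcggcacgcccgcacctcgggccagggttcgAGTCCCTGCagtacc

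That run, AGTCCCTGC, is itself common, with a sense match in 1.37% of transcripts and a reverse match in 1.06%. Gm27702 had 0 counts in both libraries, but its effective length was 0 in both, so at 56 nt it is not well measured in these libraries.

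Malat1 was by far the highest of the 5. It had 121434 expected counts in replicate 1 and 185880 in replicate 2, or 1932 and 2094 coding TPM (mean 2013 ± 115, SD, n = 2). It ranked 49 among all 43346 genes by mean coding TPM and 4 among long noncoding RNA genes. Malat1 alone held 12.8% of the counts of all long noncoding RNA genes in replicate 1 and 16.7% in replicate 2, against 16.7% and 21.1% for the 5 genes together. These shares depend on 2 other genes, Gm26917 and Gm42418. Together they held 44.3% of the same counts in replicate 1 and 37.7% in replicate 2. Of all counts, the 5 genes took 0.252% in replicate 1 and 0.355% in replicate 2.

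Miat, whose RNA carries repeats of a splicing-branch-point-like sequence, came next with 21331 counts in replicate 1 and 29063 in replicate 2. That was 186 and 261 coding TPM (mean 224 ± 53.1, SD, n = 2), so Malat1 stood 10.4 and 8.01 times above it in coding TPM. Tug1, required in mouse for male fertility and studied in the retina, had 12687 counts in replicate 1 and 17230 in replicate 2. Its level was 165 and 207 coding TPM (mean 186 ± 30.1). Pantr1, the divergent transcript of Pou3f3, had 1771 counts in replicate 1 and 803 in replicate 2, and 195 and 89.8 coding TPM (mean 143 ± 74.7).

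Below Malat1, Miat stood above Tug1 by gene coding TPM in both libraries, and the place of Pantr1 changed. Miat was at 1.13 times Tug1 in replicate 1 and 1.26 times in replicate 2 in coding TPM. The deposited bounds of these genes did not overlap in either library, at 177 to 199 for Miat and 161 to 168 for Tug1 in replicate 1 and 248 to 278 and 202 to 210.1 in replicate 2. That order rested on the 357 nt transcript Miat-206, which gave 64.8 and 108.7 of the Miat coding TPM. Without it, Miat would stand below Tug1 in both libraries. By the longest transcript, Miat was at 109 and 136 and Tug1 at 89.5 and 111. In replicate 1 Tug1 stood at 0.842 times Pantr1 in coding TPM, and in replicate 2 at 2.31 times. Over the libraries the ranges of Miat, Tug1 and Pantr1 overlapped one another, although Miat stood above Tug1 within each library. Malat1 lay above these ranges and Neat1 below them in both libraries.

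Neat1 was the lowest, with 517 counts in replicate 1 and 1241 in replicate 2. Its level was 2.14 and 3.95 coding TPM (mean 3.05 ± 1.28, SD, n = 2), and because the deposited TPM has 2 decimals, the rounding of the deposited 0.29 and 0.87 matters here. Malat1 was 902 times higher than Neat1 in replicate 1 and 530 times higher in replicate 2, in coding TPM. By the length of the longest transcript, Malat1 was at 821 and 1151 coding TPM and Neat1 at 1.15 and 2.52. The fold was then smaller in both libraries. Miat was 86.9 and 66.1 times higher than Neat1, and Tug1 76.9 and 52.5 times. Against a median of 8.13 ± 0.954 coding TPM over all protein-coding genes, Neat1 lay below and the other 4 above in both libraries. Of the lincRNA genes, 7.56% reached 1 coding TPM in both libraries, and Neat1 was among these.

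**Figure D1:**
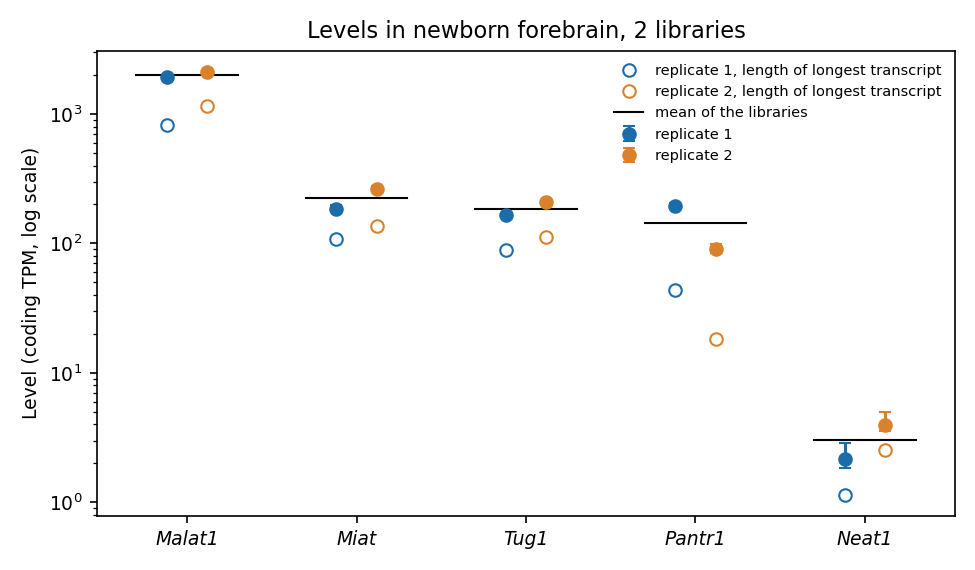
Level of each gene in coding TPM on a log scale, with replicate 1 left of replicate 2, filled points for the deposited gene value, bars for the deposited TPM interval bounds and a line at the mean. Open points use the length of the longest transcript instead, which puts Malat1 at a mean of 986 and Pantr1 at 31.1 coding TPM. Malat1 is highest and Neat1 lowest in both libraries by either measure.

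Levels per length depend on which transcripts are credited with the reads. When counts were divided by the effective length of the longest annotated transcript alone, Malat1 averaged 986 coding TPM, Miat 122, Tug1 100.3, Pantr1 31.1 and Neat1 1.83. Pantr1 moved most, since its longest transcript has 2085 nt while its mean transcript length was 660.4 nt in replicate 1 and 641 nt in replicate 2. On this scale Pantr1 averaged 31.1 ± 18.1 and Tug1 100.3 ± 15.4 coding TPM (SD, n = 2 each), and Tug1 stood at 2.04 times Pantr1 in replicate 1 and 6.05 times in replicate 2, so the order of these genes in replicate 1 depended on the length used.

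The lincRNA genes closest in level were named without regard to function. Malat1 stood between Gm10076 (3026 ± 457 coding TPM) and Gm42418 (1420 ± 685). Miat fell between Gm42743 (231 ± 76.8) and Gm27000 (207 ± 158), and Tug1 between Gm27000 and the imprinted RNA gene H19 (171 ± 66.4). Pantr1 lay between Gm17750 (159 ± 13.2) and Gm3764 (142 ± 15.6), and Neat1 between Gm17354 (3.15 ± 1.01) and Gm26901 (2.96 ± 0.315). Likeness was measured only as rank by mean coding TPM over 2 libraries.

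The transcript tables divide each gene's TPM among annotated isoforms, as an estimate from short fragments. For Malat1, the unspliced 6983 nt transcript Malat1-201 held 39.2% of TPM in replicate 1 and 52.4% in replicate 2, but 92.1% and 95.2% of counts. Malat1-204, a spliced transcript of 656 nt, held 38.7% and 40.0% of TPM on 5.52% and 4.19% of counts. Malat1-202, of 556 nt, held 22.1% and 7.65% of TPM on 2.38% and 0.595% of counts.

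Both short Malat1 transcripts share every base with Malat1-201, so only fragments across their splice junctions can tell them from it. Each has an intron, of 603 nt in Malat1-204 and 1218 nt in Malat1-202, that covers the whole triple-helix element shown above. Counted as Malat1-201 alone, the level was 757 coding TPM in replicate 1 and 1096 in replicate 2.

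Neat1 has a short form of 3004 nt, Neat1-202, that starts within a few bases of the 20771 nt form, Neat1-201, which is the one that builds paraspeckles. Neat1-201 held 86.6% of Neat1 counts in replicate 1 and 91.3% in replicate 2 (447.7 and 1133 counts). Per length the forms were close, with Neat1-201 at 0.867 times Neat1-202 in replicate 1 and 1.41 times in replicate 2. As TPM shares, Neat1-201 held 46.4% and 58.4%, and Neat1-202 53.6% and 41.6%, so the leading form by TPM differed between the libraries.

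All bases of Neat1-202 lie within Neat1-201, and its estimated 69.3 and 107.6 counts carry posterior SDs of 12.2 and 16.9. The deposited interval bounds put Neat1-202 between 0.643 and 1.60 coding TPM in replicate 1 and between 0.926 and 2.10 in replicate 2. For Neat1-201 they were 0.889 to 1.10 in replicate 1 and 2.14 to 2.44 in replicate 2. The bounds of the long form did not overlap between libraries, and those of the short form did. The headers do not give the level of these bounds.

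Miat (ENSMUSG00000097767.4) lies on the minus strand at chr5:112213228-112229395 on mm10. Its RNA is known for copies of TACTAAC, which resembles the branch point sequence of introns and binds the splicing factor SF1. Miat-201 and Miat-205 each held 6 copies on the sense strand, and Miat-201 held 0 on the reverse strand. The 2 stretches that contain all 6, at chr5:112217319-112217450 and chr5:112216762-112216802 in the GENCODE M21 transcript, are shown 5′ to 3′ with the copies in capitals.

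Miat first stretch: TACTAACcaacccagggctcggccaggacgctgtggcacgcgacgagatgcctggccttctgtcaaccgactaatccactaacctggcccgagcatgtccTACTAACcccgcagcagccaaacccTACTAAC
Miat second stretch: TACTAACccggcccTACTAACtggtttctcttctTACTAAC

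Among 2074 annotated transcripts of 7000 to 11000 nt, 0.0964% held at least 6 copies, and these 2 were the Miat transcripts themselves. At least 1 copy occurred in 18.5% of that length class, and the median was 0. Malat1, Tug1 and Pantr1 transcripts held 0 copies and Neat1 transcripts at most 1. Of the proteins that bind Miat, Srsf1, also a nuclear speckle protein, averaged 325 ± 72.0 coding TPM, the neuronal RNA-binding protein gene Celf3 111 ± 7.77 and Sf1 88.6 ± 29.1 (SD, n = 2 each). Qki had no match in the tables by symbol, which does not show that the gene is absent from them.

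Miat-201, of 8758 nt, held 54.5% of Miat TPM in replicate 1 and 46.9% in replicate 2, and 88.8% and 86.0% of counts. Miat-206 has 357 nt and held 34.8% and 41.6% of TPM on 0.730% and 0.797% of counts. That transcript had 155.8 counts in replicate 1 and 231.5 in replicate 2 over an effective length of 109.5 and 88.6 nt, which is less than the mean fragment of 248.7 and 269.7 nt. Over transcripts of at least 500 nt alone, Miat-201 held 83.6% of TPM in replicate 1 and 80.3% in replicate 2. Miat-205, the longest at 9163 nt, held 5.88% and 6.61% of TPM.

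Tug1 (ENSMUSG00000056579.13) lies at chr11:3639785-3649673 on the minus strand, and its first bases overlap the start of Morc2a, a chromatin ATPase gene on the plus strand. Tug1-205, an unspliced transcript of 1612 nt at that end, held 39.3% of Tug1 TPM in replicate 1 and 39.7% in replicate 2. By counts, Tug1-202 led with 42.8% and 40.4%, and Tug1-205 held 15.3% and 15.4%. Tug1-205 shares 0 bases with the longest transcript, Tug1-201.

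Tug1 stood at 3.09 times Morc2a in replicate 1 and 3.45 times in replicate 2, with Morc2a at 53.2 and 60.0 coding TPM. The sources do not state whether strand was used in the counting, so reads of the overlap cannot be assigned with certainty to Tug1 or to Morc2a. The other Tug1 transcripts that reached 5% of TPM were Tug1-203, with 17.3% in replicate 1 and 21% in replicate 2, and Tug1-201, with 9.78% and 7.94%. All 4 Tug1 shares differed by less than 4 percentage points between the libraries.

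**Figure D2:**
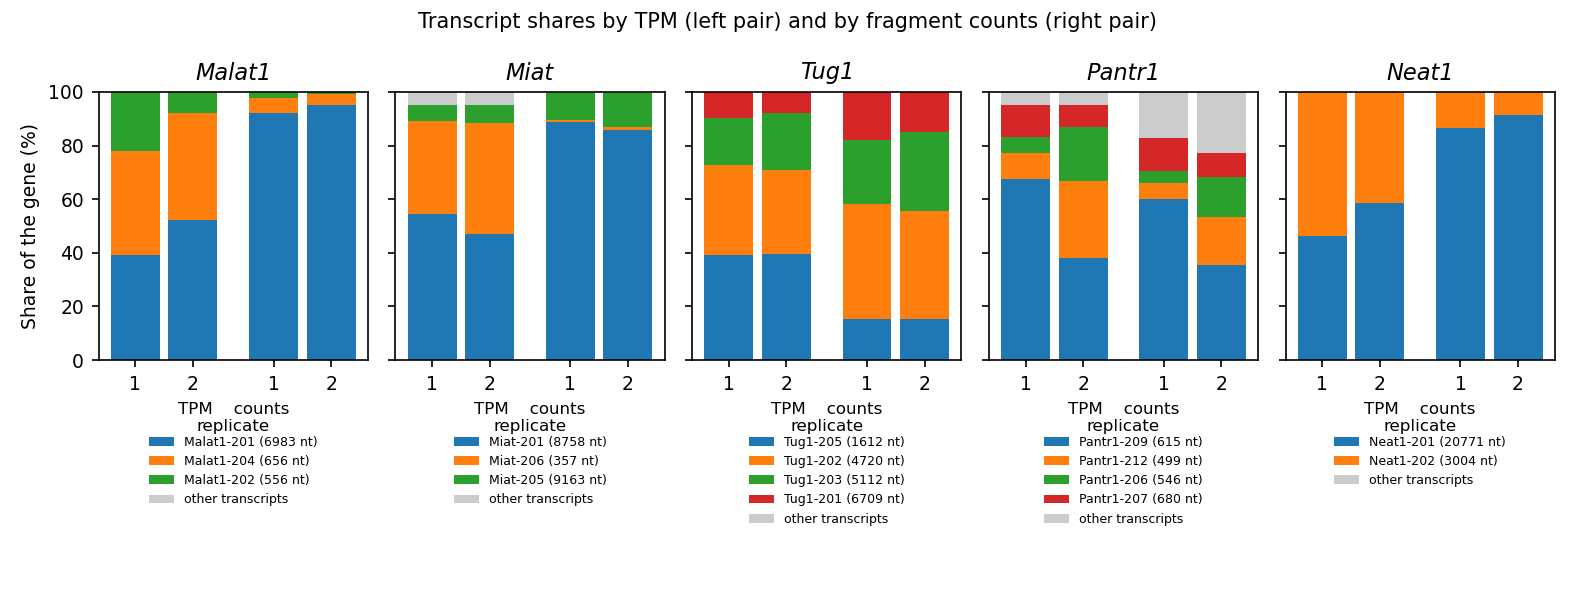
Share of each gene held by its named transcripts, as percent of TPM in the left pair of bars and percent of expected counts in the right pair, replicate 1 left of replicate 2 in each pair. Short transcripts such as Malat1-204 and Miat-206 take a large share of TPM and a small share of counts, and Pantr1-209 holds 67.7% of Pantr1 TPM in replicate 1 and 38.2% in replicate 2.

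Pantr1 (ENSMUSG00000060424.10) spans chr1:42590782-42694842 on the minus strand of mm10, and its annotated start lies 926 bases from the start of Pou3f3 on the plus strand. Its 12 annotated transcripts fall into 3 classes by their start. Of these, 5 begin in an upstream exon, 943 bases from the Pou3f3 start in Pantr1-212, 3 begin in a downstream exon farther into the locus, and 4 begin inside the gene. The upstream exon, read from Pantr1-212 (chr1:42694747-42694825), is shown 5′ to 3′ because it is the end of the gene nearest to Pou3f3 and sets 1 class of transcripts apart.

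Pantr1 upstream first exon: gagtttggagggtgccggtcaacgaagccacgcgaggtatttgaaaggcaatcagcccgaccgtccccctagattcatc

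Of the transcripts from the downstream exon, Pantr1-209 held 67.7% of Pantr1 TPM in replicate 1 and 38.2% in replicate 2. Pantr1-207, from the same exon, held 11.8% and 8.24%. From the upstream exon, Pantr1-212 held 9.64% and 28.6% of TPM and Pantr1-206 6.09% and 20.1%.

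Summed by first exon, the transcripts from the downstream exon had 1285 counts in replicate 1 and 358.5 in replicate 2. Those from the upstream exon had 478.9 and 444.5 counts. The downstream exon therefore accounted for 72.5% of Pantr1 counts in replicate 1 (Wilson 95% interval 70.4 to 74.6) and 44.6% in replicate 2 (41.2 to 48.0), and these intervals did not overlap. By TPM the shares were 79.4% and 46.4%. These intervals cover counting error only, not variation between animals.

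TMM factors came from the genes whose mean count reached 10. So scaled, the log2 ratio of replicate 1 over replicate 2 was 2.12 for the downstream class and 0.39 for the upstream class. Pantr1-205, counted in the upstream class, has an exon that overlaps the downstream first exon, and it held 5.19% of counts in replicate 1 and 3.24% in replicate 2. Its own log2 ratio was 2.08 (interval 1.46 to 2.71), close to that of the downstream class, and it raised the upstream value. The transcripts that begin inside the gene were nearly absent, at 7.56 counts in replicate 1 and none in replicate 2, and a count of 0 allows up to 3.

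**Figure D3:**
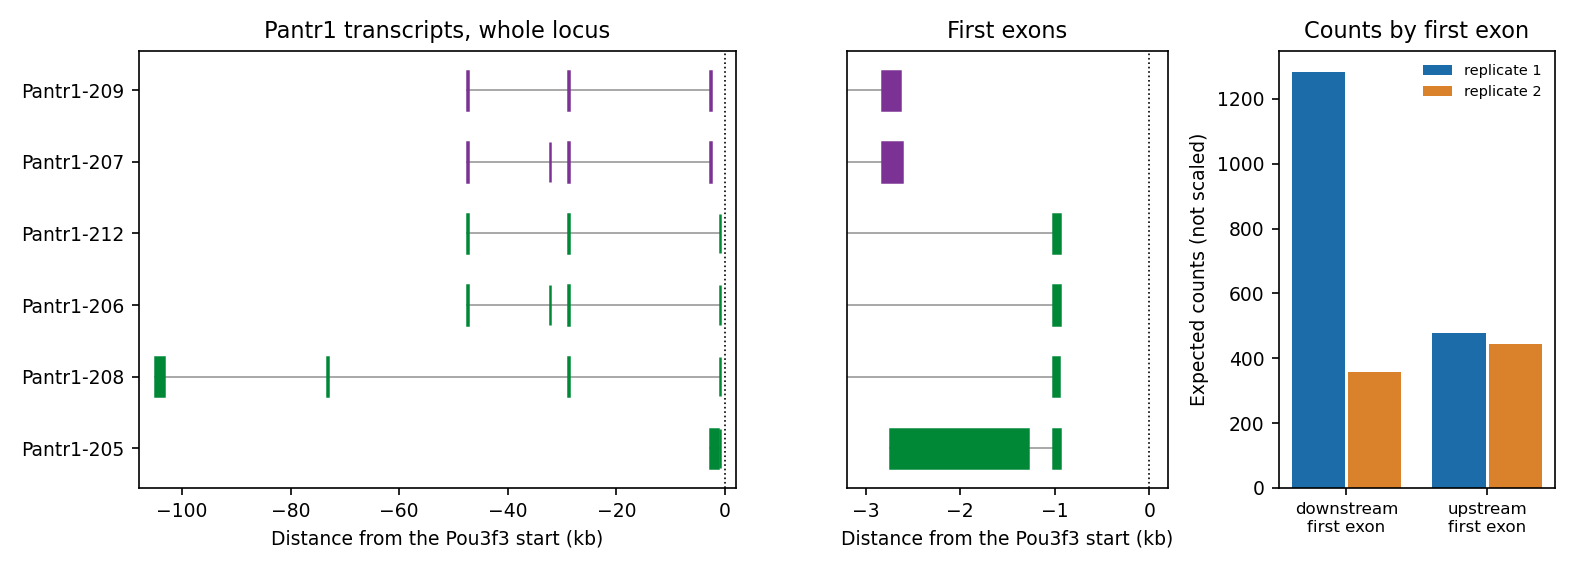
Left and middle, exons of 6 Pantr1 transcripts by distance from the Pou3f3 start in kilobases (dotted line), purple for the downstream and green for the upstream first exon, with thin lines for introns. Right, expected counts not scaled for depth, summed by first exon with replicate 1 left of replicate 2, where the downstream class has 1285 and 358.5 counts and the upstream class 478.9 and 444.5.

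Pou3f3 itself had 74.5 coding TPM in replicate 1 and 78.3 in replicate 2, a log2 ratio of 0.08 (95% interval 0.04 to 0.12). Pantr1 stood at 2.62 times Pou3f3 in replicate 1 and 1.15 times in replicate 2, in coding TPM. Pantr2, a noncoding transcript on the other side of Pou3f3, had 24 counts in replicate 1 and 57 in replicate 2, a log2 ratio of -0.95 (interval -1.63 to -0.27). The 3 genes of the locus thus had a ratio above 1 for Pantr1, near 0 for Pou3f3 and below 0 for Pantr2 on the log2 scale. AC122898.1, annotated 83 bases from Pantr1 on the plus strand and overlapping Pou3f3, had 2.44 and 2.68 coding TPM.

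Set against each other, the 2 libraries had 1 of the 5 genes past 2-fold, Pantr1. Over the 17544 genes whose mean count reached 10, 11.0% were past 2-fold (5.16% higher in replicate 1 and 5.82% higher in replicate 2), and over the 384 lincRNA genes among them 30.7% were. A single gene of 5 lies between these shares, but they include many genes of lower depth. Mean counts of the 5 ran from 879 for Neat1 to 153657 for Malat1. Genes past 2-fold fell from 1927 to 380 when a mean of 100 counts was required, and no share over genes of like depth is given here. With 1 library on each side no test of a difference was possible, and ratios are given with a 95% interval from counting error and the deposited posterior SD.

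Pantr1 had a log2 ratio of replicate 1 over replicate 2 of 1.42 (interval 1.30 to 1.54), or 2.68-fold higher in replicate 1. Neat1 was at -0.98 (-1.13 to -0.84), 1.98-fold higher in replicate 2 and just under the limit, and it passed the limit at -1.18 when scaled by library totals. Malat1 was at -0.34 (-0.35 to -0.32), Miat at -0.17 (-0.19 to -0.14) and Tug1 at -0.16 (-0.20 to -0.13). Thus 4 of the 5 were higher in replicate 2 and only Pantr1 was higher in replicate 1 under this scaling. The median log2 ratio over all tested genes was 0.003, so genes lay about evenly on both sides. This count of directions therefore does not set the 5 apart.

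The ratio moved with transcript length over all genes. Its median log2 was 0.40 over 1746 genes with a mean length under 1000 nt, 0.03 over 12091 genes of 1000 to 4000 nt and -0.12 over 3707 longer genes. Pantr1 is short and Neat1 long, so each lay on the side of its length class. After subtracting the median of the 500 genes nearest in length, Pantr1 was at 0.98, which is 1.97-fold and no longer past 2-fold. Neat1 was then at -0.82, Malat1 at -0.26, Tug1 at -0.09 and Miat at -0.02.

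Within genes, the order of the transcripts by ratio followed length in some and not in others. In Malat1 the shorter ones were higher, with log2 ratios of -0.38 for Malat1-201, 0.06 for Malat1-204 and 1.66 for Malat1-202. In Neat1 they were -1.06 for Neat1-201 (interval -1.24 to -0.88) and -0.35 for Neat1-202 (-1.14 to 0.44). In the other 3 genes the shorter transcripts were not consistently the higher ones. Miat-206, of 357 nt, was at -0.29 (-0.59 to 0.007) and Miat-201, of 8758 nt, at -0.12 (-0.17 to -0.07), so their order was not resolved. Tug1-205, of 1612 nt, was at -0.18 (-0.26 to -0.09) and Tug1-201, of 6709 nt, at 0.12 (-0.02 to 0.27). Pantr1-212 and Pantr1-206, of 499 and 546 nt, were at -0.17 and -0.34, and Pantr1-209 and Pantr1-207, of 615 and 680 nt, at 2.18 and 1.85. These Pantr1 transcripts span only 499 to 680 nt. The part of transcript length in the ratios was not tested beyond the subtraction above.

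Cell type markers also moved between the libraries. The 5 meningeal fibroblast markers had a median log2 ratio of -1.19, the 9 diencephalic ones -1.36 and the 5 endothelial ones -0.27, and Neat1 was higher in the same library as these. For Pantr1, the 8 telencephalon markers had a median of 0.03 and ran from -0.59 for Emx2 to 0.84 for Emx1, both transcription factor genes of the developing cortex. The 4 skeletal muscle markers had a median of 1.30, with 3 of them at least 2-fold higher in replicate 1 and the highest at a mean of 14.6 coding TPM. The 2 tested midbrain, hindbrain and Hox markers had a median of 2.52, at means of 0.579 coding TPM or less. Medians were 0.20 for pan-neuronal, 0.17 for radial glia and astrocyte, 0.11 for microglia and -0.11 for oligodendrocyte lineage markers. The part of these markers in the ratios of Neat1 and Pantr1 was not tested. In whole tissue, fewer cells of a type and less RNA per cell cannot be told apart.

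**Figure D4:**
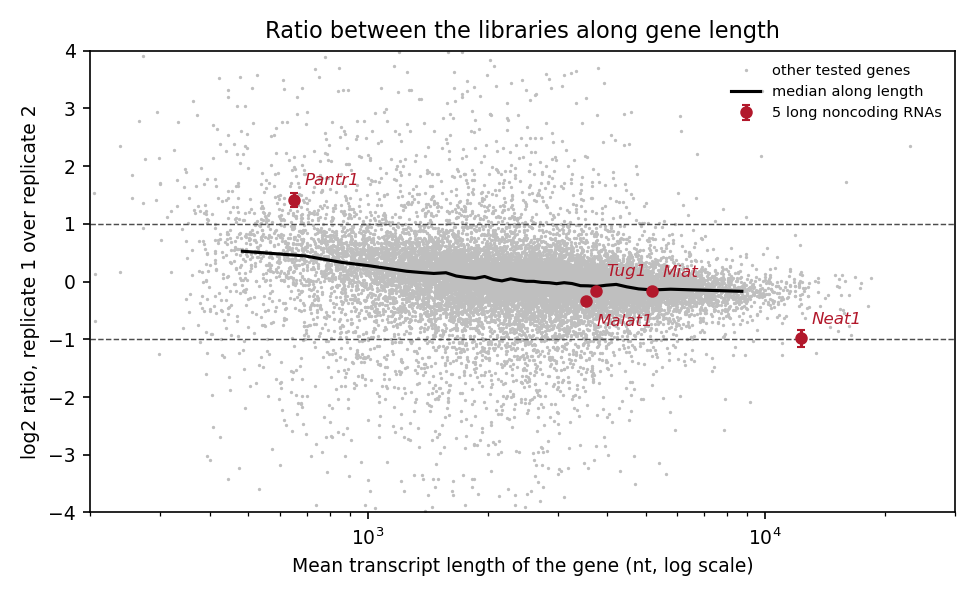
Log2 ratio of replicate 1 over replicate 2 for each tested gene against its mean transcript length in nt on a log scale, with the median along length as a line, 2-fold limits dashed, and the 5 genes in red with 95% intervals. Pantr1, at 1.42, lies above the upper limit at short length and Neat1, at -0.98, just inside the lower limit at long length.

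Transcripts of the proteins that work with these RNAs were detected in every list. All 16 paraspeckle protein genes reached 1 coding TPM in both libraries, against 63.3% of all protein-coding genes, with a median of 127 ± 17.8 coding TPM (SD, n = 2). The highest were the RNA-binding protein genes Hnrnpk at 807 ± 8.60, Nono, a core paraspeckle gene, at 378 ± 18.1 and Ewsr1 at 302 ± 55.4, and the lowest was Hnrnph3 at 18.2 ± 1.09. Even the lowest thus stood above Neat1, the RNA of these bodies, at 3.05 ± 1.28 coding TPM.

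Of the protein genes of nuclear speckles, the bodies that hold Malat1, 14 of 14 also reached that level, with a median of 201 ± 15.8 coding TPM. The splicing factor genes Srsf5 at 401 ± 96.6, Srsf1 at 325 ± 72.0 and Sf3b1 at 267 ± 45.3 were highest and Pnn at 19.9 ± 3.45 was lowest. Here the order was the reverse, since every one of these genes stood below Malat1 at 2013 ± 115 coding TPM.

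For the 12 genes of 3′-end processing and stability the median was 27.7 ± 0.458 coding TPM, and 12 of 12 reached 1. The RNase P subunit gene Pop4 was at 89.0 ± 8.60, the CCA-adding enzyme gene Trnt1 at 65.3 ± 2.89, the RNase P subunit gene Rpp21 at 47.1 ± 13.3 and Rpp40, another subunit gene, lowest at 2.71 ± 0.0379. PRC2, a chromatin-modifying complex reported to bind long noncoding RNAs, had 10 of 10 genes at that level and a median of 30.5 ± 6.44. Its highest were the histone-binding subunit genes Rbbp7 at 138 ± 2.78 and Rbbp4 at 103 ± 6.0 and the accessory subunit gene Mtf2 at 61.9 ± 5.93, and its lowest the accessory subunit gene Phf19 at 1.93 ± 0.741.

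Across these lists 0 genes were past 2-fold between the libraries, where 7.59% of tested protein-coding genes were. That share includes many genes of lower depth, so the comparison does not show that partner genes vary less. The partner gene with the fewest counts, Phf19, had 96 in replicate 1 and 186 in replicate 2. Among all genes, those past 2-fold fell from 1927 to 380 when a mean of 100 counts was required. No share over protein-coding genes of like depth is given. Median log2 ratios were -0.01 for the paraspeckle list, -0.03 for nuclear speckles, 0.18 for 3′-end processing, 0.02 for the 3 Miat-binding genes found and -0.08 for PRC2, against 0.00 over tested protein-coding genes. Neat1, at -0.98, and Pantr1, at 1.42, thus differed more between the libraries than any partner gene listed, under TMM scaling.

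**Figure D5:**
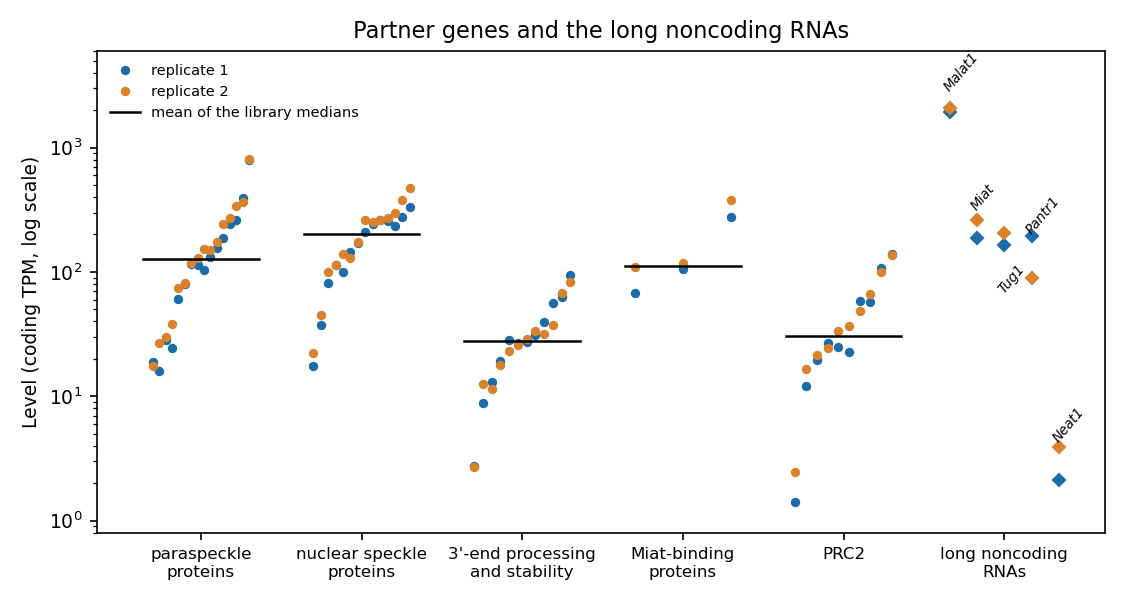
Level in coding TPM on a log scale of each partner gene by list and of the 5 long noncoding RNAs at the right, with points for replicate 1 and replicate 2 and a line at the mean of the library medians. Paraspeckle protein genes range from 18.2 to 807 on average, all above Neat1, and nuclear speckle protein genes all lie below Malat1.

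Around the other genes, Malat1 overlaps Gm37376, annotated on the opposite strand, which had 47 counts in replicate 1 and 109 in replicate 2 and cannot be separated from Malat1 without the counting strand. Frmd8, beyond Neat1, had 13.0 coding TPM in replicate 1 and 8.17 in replicate 2, and its antisense gene Frmd8os, 145 bases from the Neat1 start, had 0 counts in both. Beside Miat, the lens crystallin gene Cryba4 had 30 counts in replicate 1 and 2 in replicate 2.

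Short annotated RNAs of the class misc_RNA lie inside Malat1, Neat1, Miat and Tug1. Most had an effective length of 0 in both libraries, so their 0 counts say nothing of their levels. Only 2 had an effective length above 0, and these were the 2 with any counts. Gm27998 within Miat had 60.1 counts in replicate 1 and 0 in replicate 2, and Gm27517 within Tug1 had 7.80 and 0. The log2 ratio of Gm27998 had an interval of -17.9 to 32.3. Both lie on the same strand as their host, so their counts cannot be told apart from reads of Miat and Tug1.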

How the data were processed

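The authors deposited, per the file headers and the text supplied with each sample, gene and transcript quantifications on mm10 with GENCODE M4, made from alignments of each library alone. The aligner is not given in the sources used here, nor is the quantifier. The deposited values used were expected counts, TPM, FPKM, isoform percent (a transcript's share of its gene's TPM), posterior SDs, and interval bounds of TPM, which are treated as a score. Names, biotypes and coordinates came from GENCODE M21 on the same assembly, which matched 42462 of 43346 genes (98.0%). The members were found under their identifiers, and 3 of the 5 have a RefSeq promoter window, none of which is printed.

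Expected counts were rounded for TMM factors (edgeR 4.0.16; R 4.3.3) over the 17544 genes whose mean count reached 10, with DESeq2 1.42.0 size factors as an alternative. Ratios had 0.5 added to each count. With 1 group of 2 libraries no p-value was computed, and a gene was called past 2-fold. Shares of counts have Wilson 95% intervals. The steps were tested on simulated data with 200 changed genes. Python 3.11.15 served the other steps.

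Some items that meet the naming rule are not reported here. Named genes were the members, the genes beside or overlapping them, the lincRNA genes adjacent in level, the 3 highest and the lowest of each partner list, and transcripts with at least 5% of a member's TPM. Emx1, Emx2 and the short RNAs were named from their lists after their values were seen. Members and lists were chosen with earlier results of these data known. Alternatives were TPM as deposited, FPKM, posterior means, other scalings, filters, thresholds and each library alone. The longest-transcript level, the length-matched ratio and the grouping of Pantr1 by first exon were added after seeing the data.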

Additional observations from a re-analysis of the deposited data

How the results depend on the processing

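No log2 ratio changed sign under the alternatives run, but the order of Tug1 and Pantr1 in replicate 1 turned round, with Tug1 at 0.842 times Pantr1 by deposited TPM and 2.04 times by the longest transcript. The order of Miat and Tug1 in coding TPM rested on the short transcript Miat-206. No paired analysis was possible because the labels give 1 group only, so replicate numbers pair nothing. As deposited TPM, Malat1 averaged 361, Miat 41.4, Tug1 34.0, Pantr1 23.1 and Neat1 0.58, and by the length of the longest transcript Malat1 averaged 986 coding TPM, Miat 122, Tug1 100.3 and Pantr1 31.1. Scaled by library totals, the log2 ratios of replicate 1 over replicate 2 were -0.53 for Malat1, -1.18 for Neat1 (then past 2-fold), -0.36 for Miat, -0.36 for Tug1 and 1.22 for Pantr1. As ratios of coding TPM they were -0.12 for Malat1, -0.49 for Miat, -0.33 for Tug1 and 1.12 for Pantr1. Less the median of genes of like length they were -0.26 for Malat1, -0.82 for Neat1, -0.022 for Miat, -0.086 for Tug1 and 0.98 for Pantr1, which was then under 2-fold. By counts, Malat1-201 held 93.7% of its gene, Neat1-201 89.0%, Miat-201 87.4% and Tug1-205 15.4%, and Miat-201 held 81.9% of TPM over transcripts of at least 500 nt. Genes past 2-fold numbered 1927, against 5024 with no filter, 380 at 100 counts or more and 3933 at 1.5-fold. In single libraries, Malat1 was at 1932 to 2094 coding TPM, Neat1 at 2.14 to 3.95, Miat at 186 to 261, Tug1 at 165 to 207 and Pantr1 at 89.8 to 195. A further 65 values, under DESeq2 size factors, posterior means, FPKM, no mitochondrial genes, other pseudocounts and list thresholds among others, stayed within 1 SD of the libraries, within the 95% interval of a ratio, or within 1.5 times a count. The 30 single-library values include levels and shares that cannot leave the SD of 2 libraries and so say nothing of stability. Where values moved, the cause was not tested. Depth is lowest for Neat1 in replicate 1 (517 counts) and for Pantr1 in replicate 2 (803 counts).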

Other observations

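Rpph1, the RNA subunit of RNase P, had 287282 expected counts in replicate 1 and 148557 in replicate 2, against 121434 and 185880 for Malat1. Its annotated length is 319 nt and its effective length was 71.7 nt in replicate 1 and 51.2 nt in replicate 2, so its TPM is not set beside that of the long RNAs.

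Gm26917 and Gm42418 together held 44.3% of all counts of long noncoding RNA genes in replicate 1 and 37.7% in replicate 2. Rian, an imprinted RNA of the Dlk1-Dio3 region, averaged 2276 ± 258 coding TPM and Meg3, from the same region, 926 ± 175 (SD, n = 2 each). By gene coding TPM these lay on either side of Malat1. That order may depend on the length used, since Malat1 averaged 986 ± 233 by its longest transcript. No such level is given for Rian or Meg3.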
